A study of Mus musculus with 6 samples.

Results

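The genes described here encode the insulin receptor, its close relative the IGF1 receptor, and the proteins that carry their signal to glucose uptake: Insr, Igf1r, Irs1, Irs2, Grb10, Grb14, Pik3r1, Akt1, Akt2 and Tbc1d4. They were chosen by name, and the platform's probe-to-gene table assigned 28 of the 45101 probe sets on the array to these 10 genes. A probe set is a group of short probes for one transcript, and its signal, in linear units with no fixed scale, reports the abundance of that transcript. Of the 28 probe sets 24 were bright enough to be tested, and each of the 10 genes kept at least 1 of them.

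RNA came from the left ventricle of the heart of 6 male C57BL/6 mice, an inbred strain, 3 given an agent that the labels name Lira and 3 given placebo. The mice of both groups were 6 months old and had been fed a high fat diet, for 16 weeks by the design text. The placebo mice are thus controls on the same diet, and no mice on another diet were analysed here. The labels do not spell out Lira and give no dose. Each mouse gave 1 array, and the design text counts 10 mice, of which 6 were analysed here.

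Arrays have no read depth, and the number of mice sets the precision. Every array had the same trimmed mean signal of 150, and the median signal was 28.6 to 39.6 on Lira arrays and 31.9 to 36.4 on placebo arrays. The ratio of the 3' to the 5' control probe sets, a sign of RNA integrity, was 0.782 to 0.830 with Lira and 0.781 to 0.828 with placebo for Gapdh, and 1.63 to 1.74 and 1.55 to 1.67 for Actb. Heart muscle markers other than Ryr2 gave the strongest signals among the cell type markers listed, although the extraction text speaks of blood. Myh6 was at 31552 or more on every array, and Ryr2 at 6587 to 7879. Of the 7 red blood cell markers 3 had a probe set named for that gene alone, and none of those exceeded 63.9 on any array. The beta globin genes on that list had no such probe set and were not measured here. Among fat cell markers the highest value on any array was 16.6 for adiponectin (Adipoq), 22.8 for Cidec, 25.2 for Lep and 57.3 for Retn. Lower expression by a cell type and fewer cells of that type cannot be told apart in whole tissue.

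Insulin binds the insulin receptor, a tyrosine kinase at the cell surface, which then phosphorylates the docking proteins IRS1 and IRS2. These recruit PI 3-kinase through its regulatory subunit p85 alpha, the product of Pik3r1, and the lipid that PI 3-kinase makes activates the kinases AKT1 and AKT2. AKT phosphorylates TBC1D4, also called AS160, a brake on the movement of the glucose transporter GLUT4 to the surface of muscle and heart cells. In insulin-resistant tissue this chain is known to be weakened at several steps, and the docking proteins are under strong control both by phosphorylation and by transcription.

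The 2 docking proteins stood out in opposite directions. Folds are given on the scale of signal + 16 units, which makes those of dim genes smaller. On it Irs2 was 2.45-fold lower with Lira than with placebo and Irs1 was 1.48-fold higher. In neither gene did the 2 groups overlap. The mean Irs2 signal itself was 37.4 with Lira and 110 with placebo. The receptor Insr, the inhibitory adaptors Grb10 and Grb14, the PI 3-kinase subunit Pik3r1 and the kinases Akt1 and Akt2 each differed by at most 1.14-fold. Igf1r and Tbc1d4 lay between, 1.29-fold and 1.31-fold higher with Lira, with overlapping groups. None of these differences passed an adjusted p of 0.05 in limma over 12735 genes, a threshold that 0.0550% of all genes tested passed. At an unadjusted p under 0.05 in limma 3 of the 10 genes were counted, Irs1, Irs2 and Igf1r, against 6.00% of all genes. The groups did not overlap in 3 of the 10, Irs1 and Akt2 higher and Irs2 lower with Lira, against 11.4% of all genes.

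**Figure D1:**
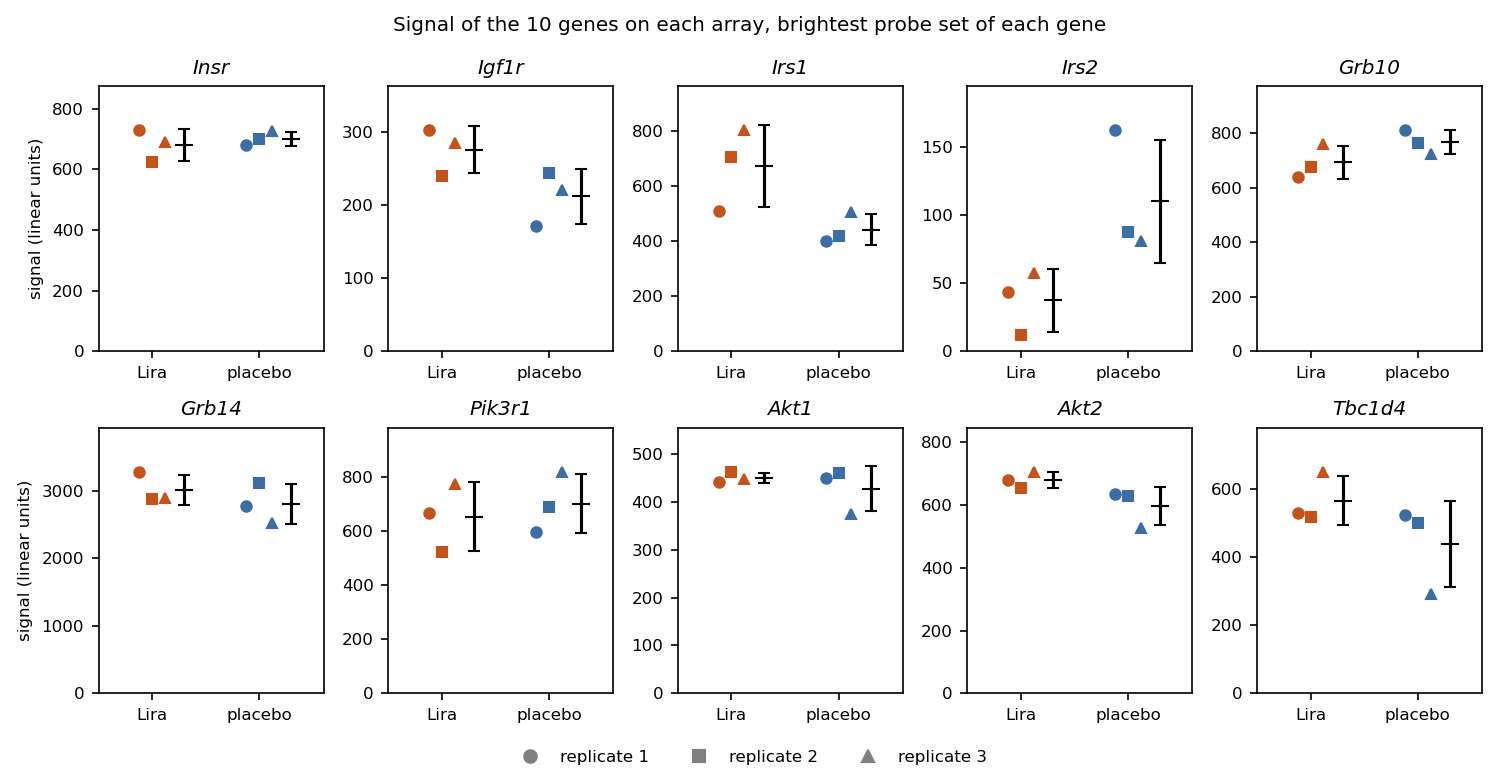
Signal in linear units of the brightest probe set of each of the 10 genes on the 6 arrays, with Lira left of placebo; each symbol is 1 mouse and the bars are the mean and SD of 3. Irs2 is lower and Irs1 higher on every Lira array, while the groups of Insr, Grb10, Grb14, Pik3r1 and Akt1 overlap.

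The promoters of the docking protein genes are shown because these genes gave the largest differences and because insulin-regulated forkhead factors of the FOXO class and E-box factors are known to act on the Irs2 promoter in liver. The windows run from 250 bases before to 50 bases after the transcription start and were taken from RefSeq on GRCm38.p6. They are Irs1 at chr1:82291390-82291689, Irs2 at chr8:11008880-11009179 and Irs4, a docking protein gene with very little signal in these hearts, at chrX:141725168-141725467, all on the minus strand and printed 5' to 3'. Capitals mark the E-box CACGTG and the insulin response element CAAAACA, which appears here as its reverse complement TGTTTTG.
Irs1: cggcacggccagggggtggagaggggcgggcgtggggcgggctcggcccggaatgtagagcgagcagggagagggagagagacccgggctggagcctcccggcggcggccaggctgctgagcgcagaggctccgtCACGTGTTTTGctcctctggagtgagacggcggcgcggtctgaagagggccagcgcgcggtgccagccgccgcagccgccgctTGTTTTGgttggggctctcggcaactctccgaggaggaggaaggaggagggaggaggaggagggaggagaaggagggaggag
Irs2: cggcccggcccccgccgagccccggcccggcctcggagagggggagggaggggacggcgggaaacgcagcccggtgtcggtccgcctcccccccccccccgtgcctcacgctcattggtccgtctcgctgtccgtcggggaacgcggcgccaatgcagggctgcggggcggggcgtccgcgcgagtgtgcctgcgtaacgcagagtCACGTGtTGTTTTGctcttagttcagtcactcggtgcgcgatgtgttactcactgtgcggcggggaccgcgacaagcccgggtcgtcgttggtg
Irs4: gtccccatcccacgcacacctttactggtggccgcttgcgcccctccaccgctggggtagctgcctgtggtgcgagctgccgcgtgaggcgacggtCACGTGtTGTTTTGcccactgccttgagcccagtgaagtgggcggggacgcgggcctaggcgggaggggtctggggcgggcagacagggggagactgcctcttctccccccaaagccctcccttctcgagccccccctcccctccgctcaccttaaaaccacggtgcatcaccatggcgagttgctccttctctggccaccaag

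In Irs2 the E-box starts at base -44 from the transcription start and the insulin response element follows at base -37. In Irs1 the E-box starts at base -115 and shares its last letters with an insulin response element at base -111, and another such element starts at base -32. In Irs4 they start at bases -154 and -147. Over 32851 promoter windows of the same length, on both strands, 7.15% held the E-box and 6.28% the insulin response element. Both were present, at any distance, in 134 windows, or 0.408%. In 9 windows, or 0.0274%, an insulin response element started within 10 bases of an E-box, and 3 of these 9 belong to Irs1, Irs2 and Irs4. The others belong to Klf11, Pcbp1, Pyroxd1, 1700019P21Rik and Gm38926, the last with 2 windows that largely overlap. The close pair was looked for after these promoters had been read, and a match of letters is no evidence of binding. Both windows hold the pair, and Irs1 was higher and Irs2 lower with Lira. Any part of the pair in these differences was not tested.

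A window was listed for 9 of the 10 genes, 15 windows in all, and Insr had none there. The insulin response element was in 2 of the 15, of Irs1 and Irs2, against 6.28% of all windows. The sequence GTAAACA, searched as a FOXO site apart from that element, was found in 1, of Akt1, against 3.65%. The cAMP response element TGACGTCA was in 0 of the 15 and in 1.79% of all windows. Its core TGACG, which also lies inside the whole element, was in 5 of the 15, of Akt2 (2 windows), Grb10, Irs1 and Pik3r1, against 20.8% of all windows. The core TGTTCT of the glucocorticoid response element was in 1, of Tbc1d4, against 19.0%.

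Among the receptors, Insr (Entrez gene 16337) encodes the insulin receptor itself. Its brightest probe set gave 729, 624 and 691 signal units on the Lira arrays, against 679, 699 and 725 on the placebo arrays. The groups overlap throughout, and the lowest and the highest of the 6 values are both Lira arrays. The log2 difference, Lira minus placebo, was -0.04 ± 0.10 (SE, n = 3 per group; adjusted p = 0.97, limma). Its 95% interval, -0.26 to 0.17, spans 0.836-fold to 1.13-fold. The other Insr probe sets were dim, with group means of 26.9 to 40.2, and gave -0.11 ± 0.25 and -0.18 ± 0.30 with overlapping groups.

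Igf1r (Entrez gene 16001) encodes the IGF1 receptor, a tyrosine kinase that signals through the same docking proteins. Its brightest probe set gave 302, 240 and 284 with Lira, against 171, 244 and 221 with placebo. Lira replicate 2 lay below placebo replicate 2, so the groups overlap by a narrow margin. The log2 difference was 0.36 ± 0.15 (unadjusted p = 0.030, adjusted p = 0.77, limma). It was 0.23 without placebo replicate 1, and the unadjusted p was not under 0.05 without that array, without Lira replicate 1 or 3, after median centring or without the variance trend.

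The other Igf1r probe sets did not show higher values with Lira. The second in brightness, built from the same source sequence as the brightest, gave 116, 81.2 and 86.5 with Lira, against 122, 82.6 and 112 with placebo, a log2 difference of -0.13 ± 0.19. The third gave -0.08 ± 0.24 and the fourth -0.40 ± 0.36, and the fifth averaged under the limit for testing. On the fourth, Lira replicate 2 gave 41.0, and the other Lira arrays gave 9.16 and 10.2, around placebo values of 27.5 to 29.4. Averaged over all its probe sets, the difference for Igf1r was -0.12, so the sign for this gene depends on the probe set.

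**Figure D2:**
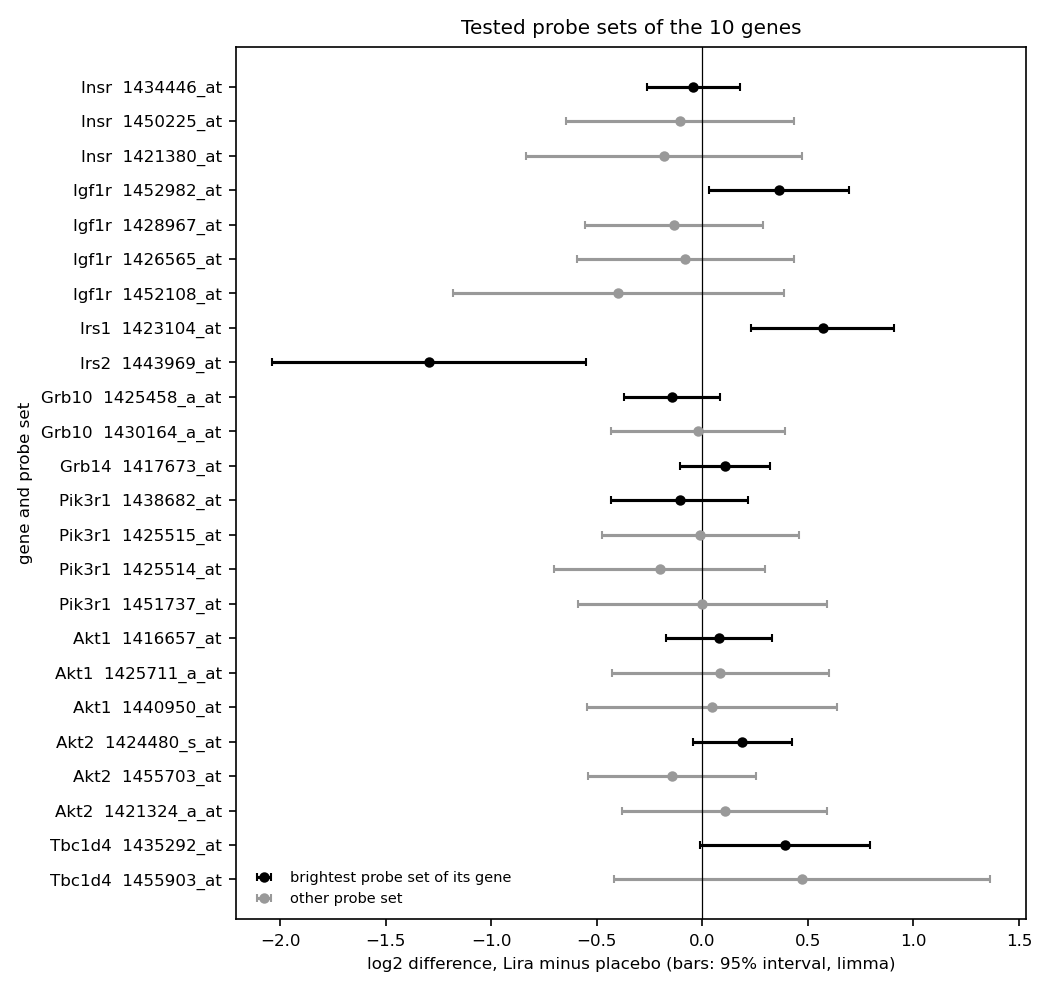
Log2 difference, Lira minus placebo, of each tested probe set of the 10 genes, with 95% intervals from limma; black points are the brightest probe set of a gene and grey points its others. The intervals of Irs1, Irs2 and the brightest Igf1r probe set leave out 0, before any adjustment for the number of probe sets tested.

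Among the docking proteins, Irs1 (Entrez gene 16367) encodes a main substrate of the receptor in muscle. Its single probe set gave 510, 709 and 804 signal units with Lira, against 403, 419 and 508 with placebo. The groups did not overlap, but the gap was narrow: Lira replicate 1 lay 1.81 units above placebo replicate 3, and after quantile normalisation the groups overlapped. Irs1 averaged 674 ± 150 with Lira and 443 ± 56.5 with placebo (SD, n = 3 each). The log2 difference was 0.57 ± 0.15 with a 95% interval of 0.24 to 0.90 (unadjusted p = 0.0025, adjusted p = 0.54, limma), which made Irs1 the gene of rank 59 of 12735 by p.

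Irs2 (Entrez gene 384783) encodes the substrate whose transcript is known in liver to fall after feeding and to climb in fasting. Its single probe set gave 43.4, 11.7 and 57.1 with Lira, against 162, 87.5 and 80.6 with placebo. Every Lira array lay below every placebo array, placebo replicate 1 was the highest by far and Lira replicate 2 the lowest. The log2 difference was -1.29 ± 0.34 with a 95% interval of -2.03 to -0.56 (unadjusted p = 0.0021, adjusted p = 0.52, limma), rank 52 by p. Because Irs2 was dim, the size depends on the constant added before taking logs: -1.61 with 4 units and -0.78 with 64 units in place of 16. Without Lira replicate 2 it was -0.88.

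The contrast between the docking proteins was measured within each array as log2 Irs1 minus log2 Irs2, a comparison chosen with both results known. It was 3.15, 4.71 and 3.49 on the Lira arrays, against 1.23, 2.07 and 2.44 on the placebo arrays. The group means differed by 1.87. That the groups do not overlap here was fixed by the choice of the genes, since Irs1 was higher and Irs2 lower on every Lira array, so the separation adds no evidence and no p is given. Both genes are read on the same array, so the array's overall scaling would largely cancel in this difference if both were bright. Because a constant was added before taking logs, that scaling cancels only in part where Irs2 is dim. Irs2 was lowest on Lira replicate 2, at 11.7 signal units, the array with the largest difference, 4.71. The absolute level of the difference between the genes says nothing, as probe sets of different genes are not on one scale.

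**Figure D3:**
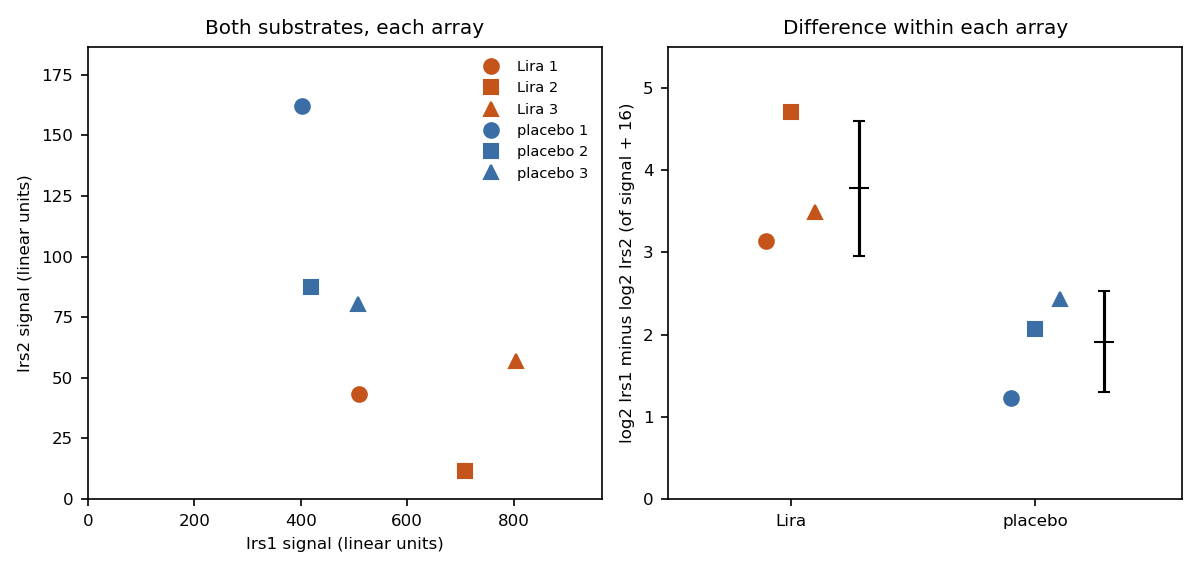
Left, Irs2 signal against Irs1 signal in linear units on each of the 6 arrays, Lira in orange and placebo in blue; right, log2 Irs1 minus log2 Irs2 on each array with the mean and SD of 3, Lira left of placebo. The Lira arrays sit at 3.15 or more and the placebo arrays at 2.44 or less.

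Neither docking protein has a second probe set named for it alone in the table used, so no other measurement of the same transcript was at hand. The related genes Irs3 and Irs4 had at most 17.3 and 25.6 signal units on any array and were not tested. The summed signal of 6 smooth muscle markers was 2545 to 4560 on Lira arrays, against 2153 to 2396 on placebo arrays, and this separation came from Acta2, smooth muscle actin, alone. Acta2 gave 3377, 1579 and 1518 with Lira, against 1122, 1074 and 1391 with placebo. Without it, a sum chosen after the values were seen, the markers gave 1183, 1079 and 1027 with Lira, against 1195, 1079 and 1005 with placebo, and the groups of each of the other 5 markers overlapped. Their log2 differences were 0.16 for Myh11, 0.10 for Mylk, -0.02 for Tagln, -0.10 for Smtn and -0.39 for Cnn1, which was too dim to be tested. The summed heart muscle markers overlapped, at 200632 to 251105 and 200325 to 211248, and 8 of 8 were higher with Lira. The part of these in the Irs1 and Irs2 results was not tested. Summed macrophage markers also overlapped, at 2691 to 3169 with Lira and 2529 to 2693 with placebo, and 7 of 7 were higher with Lira. Fibroblast sums barely overlapped, at 11676 to 13857 and 11123 to 11713, with 4 of 7 higher. Endothelial sums overlapped, at 3535 to 3851 and 3070 to 3786, with 6 of 7 higher. Among single markers outside smooth muscle, groups did not overlap for Ryr2, Dcn, Adgre1, C1qa and Myl4, higher with Lira, and Slc4a1, lower. Over all genes tested 11.4% had such groups. The part of these markers was not tested either.

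The genes whose values over the 6 arrays were most like those of Irs1 were Gbp6, an interferon-induced GTPase (Pearson r = 0.977), Pcna, the sliding clamp of DNA replication (r = 0.976), and Lrrc52 (r = 0.975). Most like Irs2 were Ttyh3, Abhd14a (r = 0.988 each) and Zswim9 (r = 0.986). These r values are descriptions over 6 arrays that share the split into treatment groups, and 21 genes reached an r above 0.95 with Irs1 and 29 with Irs2.

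The inhibitory adaptors Grb10 and Grb14 bind the activated insulin receptor and restrain its kinase, and Grb10 is an imprinted gene. Grb10 (Entrez gene 14783) gave 641, 678 and 762 with Lira on the brightest probe set, against 812, 766 and 724 with placebo. Lira replicate 3 lay above placebo replicate 3, so the groups overlap, and the log2 difference was -0.14 ± 0.10 (adjusted p = 0.88, limma). It was -0.09 without Lira replicate 1. A second, dimmer probe set gave -0.02 ± 0.19, and the third averaged 5.33 with Lira and 9.37 with placebo, under the limit for testing.

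Grb14 (Entrez gene 50915), abundant in heart, gave 3277, 2885 and 2899 with Lira on its brightest probe set, against 2784, 3122 and 2528 with placebo. The groups overlap, with a log2 difference of 0.11 ± 0.10 and a 95% interval of -0.10 to 0.32 (adjusted p = 0.92, limma). Leaving out Lira replicate 1 gave 0.05, leaving out placebo replicate 2 gave 0.18 and leaving out placebo replicate 3 gave 0.03, and averaging its probe sets gave 0.27. Its other probe set did not exceed 20.1 on any array and was not tested.

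Pik3r1 (Entrez gene 18708) encodes the regulatory subunits of PI 3-kinase that bind the docking proteins. The brightest of its 4 probe sets gave 666, 522 and 774 with Lira, against 598, 690 and 818 with placebo, and the groups overlap. The log2 difference was -0.11 ± 0.15 (adjusted p = 0.95, limma), and it was 0.04 without Lira replicate 2 and 0.01 without placebo replicate 3. Lira replicate 2 was the lowest Lira array on all 4 probe sets, for example at 56.3 beside 111 and 125 on the third in brightness and at 31.1 beside 72.9 and 83.5 on the dimmest. The other 3 probe sets, which share one source sequence, gave log2 differences of -0.01 ± 0.22, -0.20 ± 0.23 and -0.0011 ± 0.27.

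Akt1 (Entrez gene 11651) and Akt2 (Entrez gene 11652) encode the kinases that carry the signal onward, and Akt2 is the form most tied to glucose uptake. On its brightest probe set Akt1 gave 441, 461 and 448 with Lira, against 448, 459 and 373 with placebo. The Lira arrays lay close together and placebo replicate 3 lay below all others. The log2 difference of Akt1 was 0.08 ± 0.11 (adjusted p = 0.95, limma), and without placebo replicate 3 it was -0.01.

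Akt2 gave 679, 653 and 704 with Lira on its brightest probe set, against 634, 627 and 526 with placebo. The groups did not overlap, by 19.4 units, but did after median centring, and the log2 difference was 0.19 ± 0.11 with a 95% interval of -0.04 to 0.42 (adjusted p = 0.86, limma). It was 0.10 without placebo replicate 3 and 0.05 with its probe sets averaged. The other Akt2 probe sets, both near 100 units, gave -0.14 ± 0.18 and 0.11 ± 0.22 with overlapping groups. The suffix in the name of the brightest one marks probes that can match other transcripts too.

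Tbc1d4 (Entrez gene 210789) gave 530, 517 and 649 with Lira on its brighter probe set, against 524, 499 and 292 with placebo. Lira replicate 3 was high and placebo replicate 3 low, and the other 4 arrays lay between 499 and 530. The log2 difference was 0.39 ± 0.18 (unadjusted p = 0.051, adjusted p = 0.82, limma), and it was 0.13 without placebo replicate 3. The dimmer probe set gave 62.8, 55.2 and 35.0 with Lira, against 45.7, 64.5 and 5.57 with placebo, with placebo replicate 3 again the lowest, and its difference turned from 0.47 to -0.10 without that array.

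The arrays that set the extremes were counted over the 10 genes only, with no count over all genes to set beside them. Placebo replicate 3 was the lowest of the 6 arrays in 4 genes, Grb14, Akt1, Akt2 and Tbc1d4, and the highest in Pik3r1. Lira replicate 2 was the lowest in Insr, Irs2 and Pik3r1. Placebo replicate 2 was the lowest or highest in 0 genes. Over all tested probe sets of the 10 genes, 10 were higher and 14 lower with Lira, the median log2 difference was -0.01, and 3 of 24 had an unadjusted p under 0.05 in limma, against 5.62% of all probe sets tested.

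To set these genes beside the rest of the pathway, 90 further genes were listed in 8 groups by role, and 65 of them were tested. None of the 65 passed an adjusted p of 0.05 in limma, 3 had an unadjusted p under 0.05, all lower with Lira, and the groups did not overlap in 5. That is 4.62% and 7.69% of the list, against 6.00% and 11.4% of all genes. With Lira 36 of the 65 were higher and 29 lower, around a median log2 difference of 0.03, against 52.0% higher and a median of 0.01 over all genes.

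Among ligands and IGF binding proteins 7 of 8 tested genes were higher with Lira, with a median of 0.10. The exception was Igfbp7, a secreted protein of vessel walls that binds IGFs weakly, which gave 2515, 2566 and 2642 with Lira, against 2854, 3089 and 3380 with placebo. Its groups did not overlap, and the log2 difference was -0.27 ± 0.09 (unadjusted p = 0.0093, adjusted p = 0.631, limma). Of its 2 dim probe sets one gave -0.33, and the other gave 1.02 with 84.2 signal units on Lira replicate 1. Igfals, the acid-labile partner of circulating IGFs, gave 0.36 ± 0.25.

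Receptors and receptor partners had 3 tested genes, all lower, with -0.14 ± 0.17 for Igf2r, the receptor that clears IGF2, and -0.18 ± 0.23 for Sorl1, a sorting receptor. Of 9 docking proteins and adaptors 7 were lower and 2 higher (median -0.17). Grb2, the adaptor that links receptors to RAS, gave 503, 460 and 491 with Lira, against 515, 506 and 621 with placebo, and a difference of -0.17 ± 0.11 on the probe set used and 0.10 on its other one. Gab2, a scaffold protein, gave -0.25 ± 0.17, with the other sign on 2 dimmer probe sets.

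Genes that restrain the receptor and the docking proteins were split, with 3 of 6 higher and 3 lower. Socs3, a feedback inhibitor that binds the receptor and promotes the loss of IRS proteins, gave 71.3, 93.0 and 31.3 with Lira on its brightest probe set, against 74.4, 129 and 140 with placebo. The groups overlap, and the difference was -0.73 ± 0.29 (unadjusted p = 0.027, adjusted p = 0.757, limma). Its other probe sets gave -0.08 and -0.06. The brightest and the one at -0.08 carry a suffix that marks probes that can match other transcripts too. Cul7, a scaffold of a ubiquitin ligase that targets IRS1, gave -0.19 ± 0.14.

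Of 9 PI 3-kinase subunits and lipid phosphatases 3 were higher and 6 lower. The probe set of Pik3cd, a catalytic subunit typical of leukocytes, gave 9561, 12766 and 6874 with Lira, against 12173, 12850 and 12272 with placebo, a difference of -0.40 ± 0.16 (unadjusted p = 0.027, adjusted p = 0.757, limma). The 5 other probe sets named for Pik3cd did not exceed 46.0 on any array, and the only one of them tested gave 0.29. Pik3cb, a catalytic subunit, was dim at 57.0 ± 13.1 with Lira and 37.0 ± 3.28 with placebo, with groups that did not overlap and a difference of 0.45 ± 0.24 (adjusted p = 0.845, limma).

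In the AKT module 8 of 10 genes were higher, with a median of 0.06. Mlst8, a subunit of both mTOR complexes, gave 109, 156 and 103 with Lira, against 94.9, 75.3 and 100.4 with placebo, a difference of 0.37 ± 0.19 (adjusted p = 0.83, limma) with groups barely apart. Pdpk1, the kinase PDK1 that phosphorylates AKT, gave 0.12 ± 0.11, and -0.09 on its other tested probe set. In the glucose uptake and glycogen arm 8 of 13 genes were higher and 0 had an unadjusted p under 0.05. There Stx4a, a membrane fusion protein used by GLUT4 vesicles, gave 0.20 ± 0.12, and the phosphodiesterase Pde3b gave -0.22 ± 0.18. Of 7 genes of the RAS-ERK arm 5 were higher, with -0.15 ± 0.10 for Sos2 and 0.14 ± 0.11 for the kinase Map2k1.

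**Figure D4:**
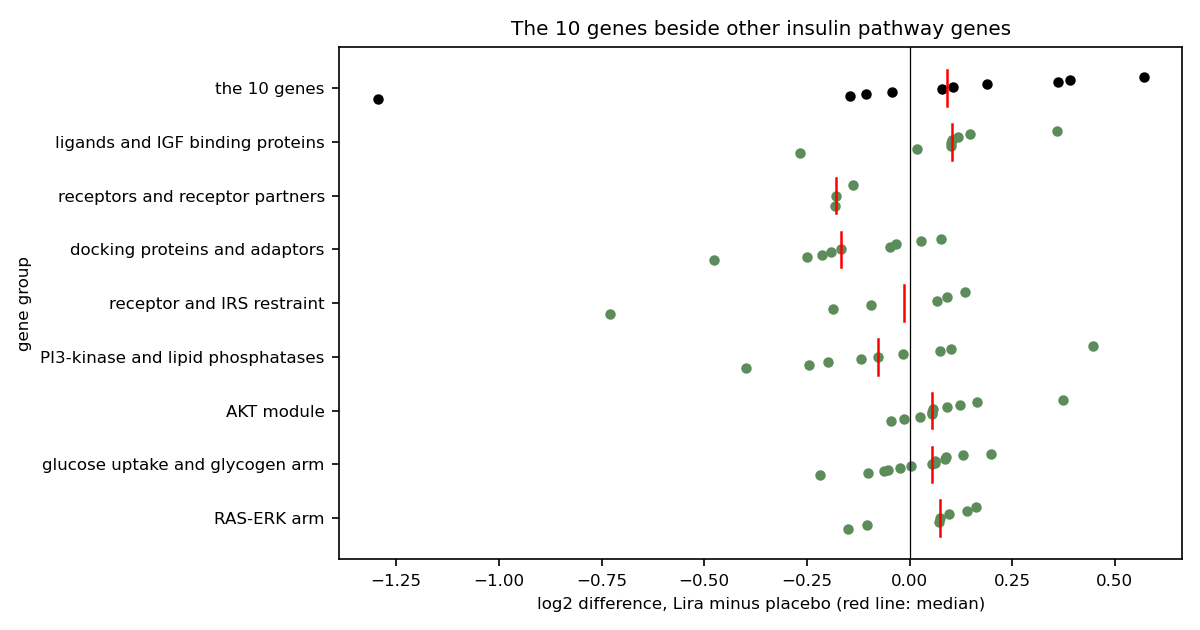
Log2 difference, Lira minus placebo, of each tested gene, in rows for the 10 genes and for 8 further groups of insulin pathway genes; each dot is 1 gene and the red line is the row's median. Irs2 at -1.29 is the lowest and Irs1 at 0.57 the highest of all genes plotted.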

How the data were processed

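Transcript abundance was measured on Affymetrix arrays from the left ventricle of 3 Lira and 3 placebo mice. The authors deposited a linear intensity for each probe set on each array. Per the submitters' processing notes, Expression Console was used. No version, algorithm or genome build was stated. Scaling every array to a 2% trimmed mean of 150 removes differences in total signal. No detection calls were used.

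Control probe sets (64) were left out. Of the others 34945 were named for 1 gene, 932 for several and 9160 had no name in the table used, and names were updated by gene ID to RefSeq (99.4% matched). Each of 18193 genes was represented by its probe set of highest mean signal. Values were log2(signal + 16), and the 30% of genes of lowest mean were left out, leaving 12735. Groups were compared with limma 3.58.1 in R 4.3.3 (eBayes with a variance trend, two-sided, Benjamini-Hochberg over all genes). Single probe sets were fitted likewise over 24461 probe sets. Fold changes on this scale understate dim genes. The code of the fit was tested on data simulated from the fitted model, which cannot show whether that model holds for these arrays.

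The genes, the lists of pathway and marker genes, the motifs and the rule for named genes were chosen with earlier results of these data known. The rule named all 10 genes with their tested probe sets, and of each role group any gene past the adjusted threshold and otherwise the 2 of smallest p. It also named the 3 characterised genes most like Irs1 and Irs2. Same-numbered samples of the 2 groups did not deviate together (r = -0.037, 0.085 and -0.088 over genes). This gave no sign that the numbers pair mice, but 3 arrays per group cannot exclude it. Alternatives were quantile normalisation, median centring, other pseudocounts and filters, averaged probe sets, every probe set, other variance models, array weights, the replicate number as a block, and each array left out.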

Additional observations from a re-analysis of the deposited data

How the results depend on the processing

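In none of the alternatives run did any of the 10 genes or of the 65 further pathway genes pass an adjusted p of 0.05 in limma. Irs1 stayed higher, at 0.43 to 0.75, and Irs2 lower, at -1.61 to -0.78, in each alternative that tested them, with adjusted p from 0.135 to 0.888 for Irs1 and 0.114 to 0.888 for Irs2. Irs2 was not tested under a 50% filter. Log2 Irs1 minus log2 Irs2 was 1.30 to 2.19. Each has 1 probe set, so alternatives over probe sets were not run for this difference.

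With the replicate number as a block the adjusted p was 0.21 for Irs1 and 0.30 for Irs2 and 4 genes in all passed in place of 7. The number of genes past the threshold was 1 without a filter, 2 over every probe set, and 0 both with the mean of probe sets and without the variance trend (684 and 687 genes at an unadjusted p under 0.05). It was 1 to 9 with each array left out: 4, 3 and 1 without Lira replicates 1, 2 and 3, and 2 without placebo replicate 2. Over every probe set, 84 of the further pathway probe sets were higher, since more features were counted.

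Signs turned for Igf1r with the mean of probe sets (-0.12), for the dimmest Pik3r1 probe set with median centring (0.0083), a pseudocount of 64 (0.017) and array weights (0.025), and for the second Akt1 probe set with array weights (-0.046). The causes were not tested. With single arrays left out, values spanned 0 at -0.091 to 0.018 for Insr, -0.23 to 0.043 for Pik3r1 and -0.012 to 0.13 for Akt1. On dimmer probe sets, counted in order of brightness, they spanned -0.20 to 0.0021 for the second of Insr, -0.30 to 0.035 for the third of Igf1r, -0.16 to 0.095 for the second of Grb10, and -0.19 to 0.21, -0.39 to 0.094 and -0.21 to 0.33 for the second, the third and the fourth of Pik3r1. They spanned -0.25 to 0.28 and -0.18 to 0.29 for the second and the third of Akt1, -0.084 to 0.26 for the third of Akt2 and -0.097 to 0.85 for the second of Tbc1d4. Among alternatives added after the data were seen, 3 to 5 of the 10 genes had groups that did not overlap with an array left out, and 5 did so without Lira replicate 2 or placebo replicate 2, where 22.7% and 20.1% of all genes did. Dim probe sets limit precision: Irs2 had SE 0.34, against 0.10 for Insr.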
